A study of Mus musculus with 44 samples.

Results

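Monocyte-derived macrophages of the bleomycin-injured mouse lung were compared between D14 and D7 after injury, in animals that carried young bone marrow. The comparison rests on 7 of the 44 libraries of the series, 3 at D14 and 4 at D7. The population is labelled MoAM, usually read as monocyte-derived alveolar macrophage, which the labels do not spell out. Young recipient mice received marrow from young or from aged donors and, once it had engrafted, were given bleomycin at 1 U/kg into the trachea. Cells were then sorted from the lungs, 30000 to 80000 per library, and sequenced as 3′ tags. All mice carry the genotype label Bl6, and every group received both marrow and bleomycin, so neither group compared here is an uninjured or untransplanted control. The D14 group and the D7 group share recipient age, donor marrow age and sort label and differ in the day. The labels give no sort gates, no recipient or donor ages in weeks and no animal numbers. Whether the libraries of a group came from separate mice is therefore unknown, and the p-values below measure a spread between libraries that may be technical.

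The members were taken by file position and not by the printed column names. The 44 column names of the deposited count table were sorted bytewise, and the title that belongs to the name at each place of the sorted order was given to the data column at that place. This puts MoAM D14 young in data columns 33 to 35 and MoAM D7 young in columns 36 to 39. The names printed above these columns belong to libraries labelled CD25pos young, CD25pos aged and CD25neg young, and 0 of the 44 columns keep their printed population under this order. For 9 of the 10 lineage genes looked at, the libraries highest in the gene were mostly of the population it marks by position, and fewer or none of them by printed name. The 13 libraries highest in Siglecf, a lectin of alveolar macrophages, were all AM by position (13 of 13) and never AM by printed name (0 of 13). The 5 libraries highest in Ly6c2, a surface protein of classical monocytes, were all monocytes by position (5 of 5) and never by name (0 of 5). Foxp3, the regulatory T cell factor, placed 12 of its 12 highest libraries in CD25pos or CD25neg by position and 0 by name. For Mmp12, a macrophage elastase, the 14 highest libraries were the 14 MoAM libraries by position and 0 of them by name. Other genes were less exact. The T cell gene Cd3e placed 11 of its 12 highest libraries in CD25pos or CD25neg by position and 1 by name. C1qa placed 11 of 14 in MoAM by position and 0 by name, and Csf1r 12 of 14 and 0. Spp1 did not mark MoAM under either order, with 6 of 14 by position and 3 by name. Lineage genes bear on the population of a column, not on its day or marrow age within MoAM, so D14 and D7 rest on the position order alone.

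**Figure D1:**
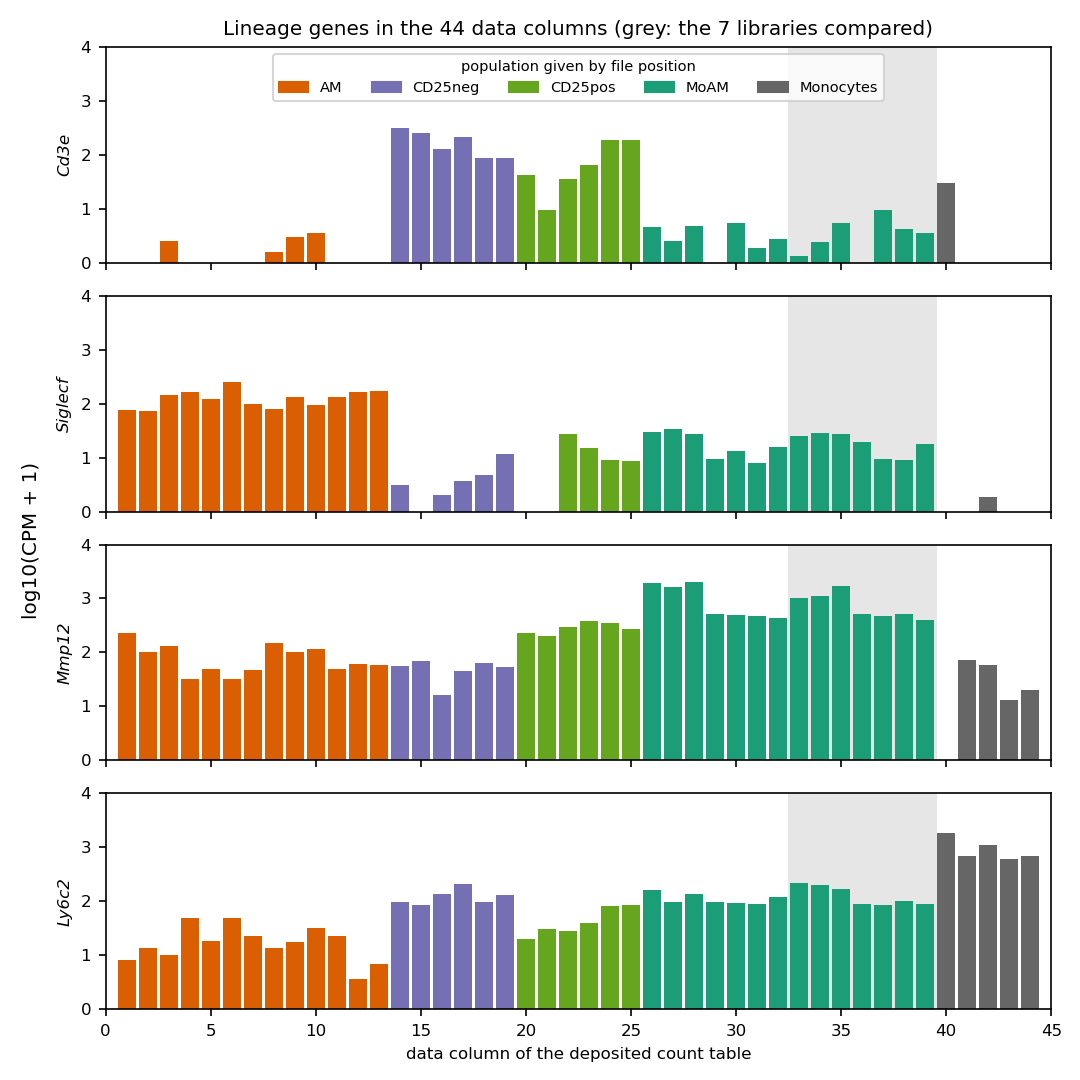
CPM of 4 lineage genes on a log10(CPM + 1) axis in each of the 44 data columns of the count table, coloured by the population that file position gives, with the 7 libraries compared here shaded grey. Siglecf is highest in all 13 AM columns, Ly6c2 in all 5 monocyte columns and Mmp12 in all 14 MoAM columns, while Cd3e is at 34.7 CPM or more in 11 of the 12 CD25neg and CD25pos columns and at 8.51 CPM in 1 CD25pos aged column, with 1 monocyte column at 29.05 CPM.

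Monocytes enter the injured lung from the blood and mature there into macrophages. Over time they lose monocyte surface proteins and can take on features of resident alveolar macrophages, such as Siglecf and lipid handling under the nuclear receptor PPARγ. In fibrosis, recruited macrophages that express osteopontin (Spp1), matrix proteases and growth factors lie close to the scar, and apoptotic cell uptake, lysosomal digestion and cholesterol handling are among their main tasks.

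Marker genes set the 7 libraries apart from AM and monocytes, and less clearly from CD25pos. C1qa, a complement component of tissue macrophages, measured 2446 to 2842 CPM at D14 and 1629 to 1738 at D7 (TMM scaled over all 44 libraries, for comparison between populations), against 18.5 to 59.6 in young AM at D7 and 25.6 to 45.98 in young monocytes at D7. CD25pos libraries also held C1qa, at 358.9 to 3417 CPM by library total against 1498 to 2588 in MoAM, so this gene does not tell those populations apart. Mmp12 separated them on the same scale by a narrow margin only, at 403.3 CPM or more in MoAM and at most 383.9 in CD25pos. Ly6c2 stood between the neighbouring populations, at 175.6 to 238.1 CPM at D14 and 88.8 to 104.6 at D7, with 461.5 to 551.8 in the monocytes and 2.62 to 22.7 in AM at D7. The T cell gene Cd3e stayed at or below 8.56 CPM, by library total, in every MoAM library. Depth moved with the day: total counts were 2787165 to 5651589 at D14 and 233754 to 1258235 at D7, and 13669 to 14574 against 10202 to 12893 genes had a count. Ribosomal protein genes took 5.40% to 6.36% of counts at D14 and 7.56% to 8.66% at D7, and mitochondrial DNA-encoded genes 2.38% to 3.09% and 3.11% to 3.91%. D7 replicate 2, the shallowest library, stood apart on the first principal component of the 14 MoAM libraries, which held 29.6% of the variance.

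Of 10690 genes tested, 1407 differed between D14 and D7 (13.2%; edgeR quasi-likelihood test, Benjamini-Hochberg adjusted p under 0.05). Among these, 728 were higher at D14 (6.81% of the genes tested) and 679 lower (6.35%), and 226 and 165 of them changed 2-fold or more. The median log2 fold change of all genes tested was 0.019. For 1851 genes (17.3%) the libraries of the groups did not overlap at all, and 1082 of these were also called. The count depended on which libraries entered the fit, a choice that sets the filter and scaling as well as the estimate of spread. It was 896 with only these 7 libraries fitted and 25 with all 44 libraries in 1 fit, where the 1407 genes kept their direction. Fold changes in these fits come from the same 7 libraries, so a kept direction is no further support. Without D7 replicate 2 the count was 1476, with 777 higher and 699 lower. Since depth differed with the day, all libraries were also thinned to the total of the shallowest, 233754 counts. At that depth 5156 genes could be tested and 467 were called, 213 higher and 254 lower. Of the calls in full-depth data that could be tested there (1115), 1109 kept their direction, in counts drawn from the same libraries. In sorted bulk RNA, more cells of a kind in the sort and more RNA of a gene per cell cannot be told apart, here and in all that follows. Some genes belong to more than one of the lists described below and are counted in each.

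**Figure D2:**
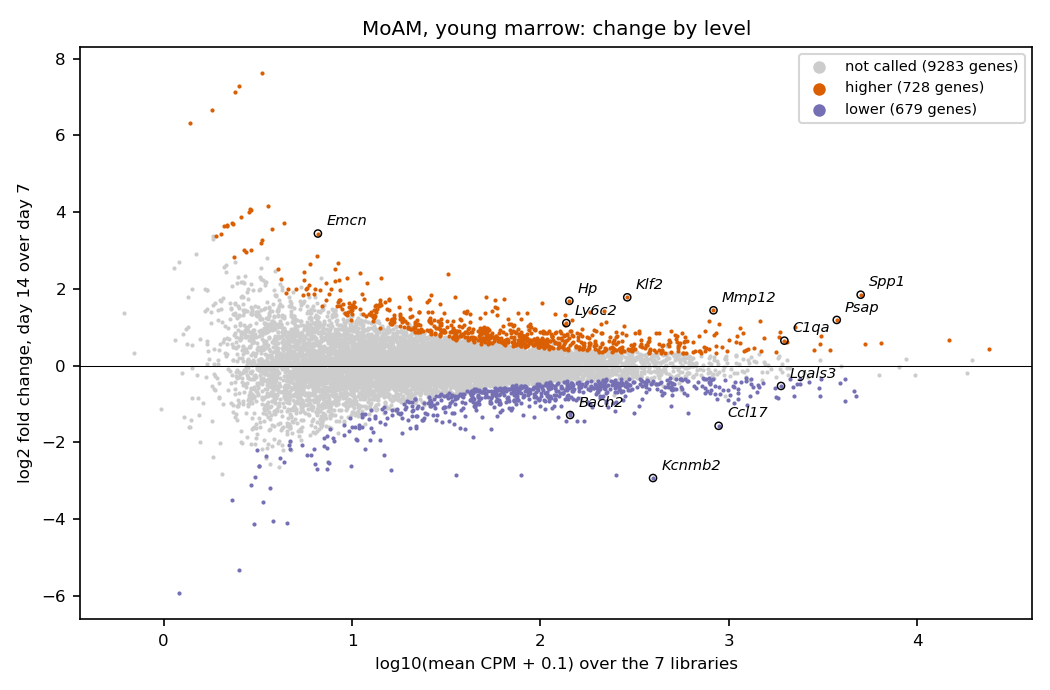
Log2 fold change at D14 over D7 against the mean level over the 7 libraries, on a log10(CPM + 0.1) axis, for the 10690 genes tested, with the 728 called higher in orange, the 679 called lower in purple and the 9283 not called in grey. Spp1 combines a level among the highest with a log2 fold change of 1.85. Emcn, first among the named rises, lies at a low level, and Kcnmb2, first among the named falls, lies well to the right of it.

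Of 26 listed genes of the fibrosis-associated macrophage program, all tested, 11 rose at D14, 3 fell and 12 were not called (median log2 fold change 0.35). Spp1, which encodes osteopontin, measured 8949, 9232 and 7389 TMM-scaled CPM at D14 and 2679, 2853, 2258 and 1743 at D7. Every D14 library lay far above every D7 library, and the log2 fold change was 1.85 (SE 0.11, adjusted p = 9.97e-17). Mmp12 measured 1059, 1132 and 1705 CPM at D14 and 527, 473, 501 and 410 at D7 (log2 fold change 1.44, SE 0.12, adjusted p = 5.86e-12). Lpl, the lipoprotein lipase that releases fatty acids from lipoproteins, measured 3015, 3005 and 3427 CPM at D14 against 1739, 1529, 1414 and 1634, a log2 fold change of 1.00 (SE 0.10). The groups overlapped in none of these genes. Igf1, a growth factor for fibroblasts, measured 179.9, 166.2 and 117.1 CPM at D14 and 111.6, 132, 60.97 and 67.5 at D7. Its D14 replicate 3 lay inside the D7 range, and the log2 fold change was 0.86 (SE 0.18, adjusted p = 0.000673). Gpnmb (0.64), Cd9 (0.59), Cd63 (0.43), Cd36 (0.84), Mfge8 (0.79), Itgax (0.85) and Apoe (0.42), named here by log2 fold change, rose as well.

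Members of the same list went the other way. Arg1, the arginase of alternatively activated macrophages, measured 140, 162 and 164.9 CPM at D14 and 224.6, 247, 228.2 and 258.2 at D7 (log2 fold change -0.61, SE 0.13, adjusted p = 0.000449). Tgfb1, the central fibrogenic cytokine, measured 49.8, 46.4 and 69.7 CPM at D14 and 76.7, 76.6, 111.8 and 97.3 at D7 (-0.77, SE 0.18, adjusted p = 0.00197). Lgals3, which encodes galectin-3, fell by 0.53 on the log2 scale. For all of these the D14 libraries lay below the D7 libraries. Trem2, a lipid-sensing receptor of these cells, measured 224 to 260 CPM at D14 and 149 to 219 at D7 and was not called (0.32, SE 0.13, adjusted p = 0.0999), although its libraries did not overlap. Fabp5 (-0.044, SE 0.14) and Pdgfa (-0.067, SE 0.22) were not called either, with overlapping libraries and a direction that turned under other settings.

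**Figure D3:**
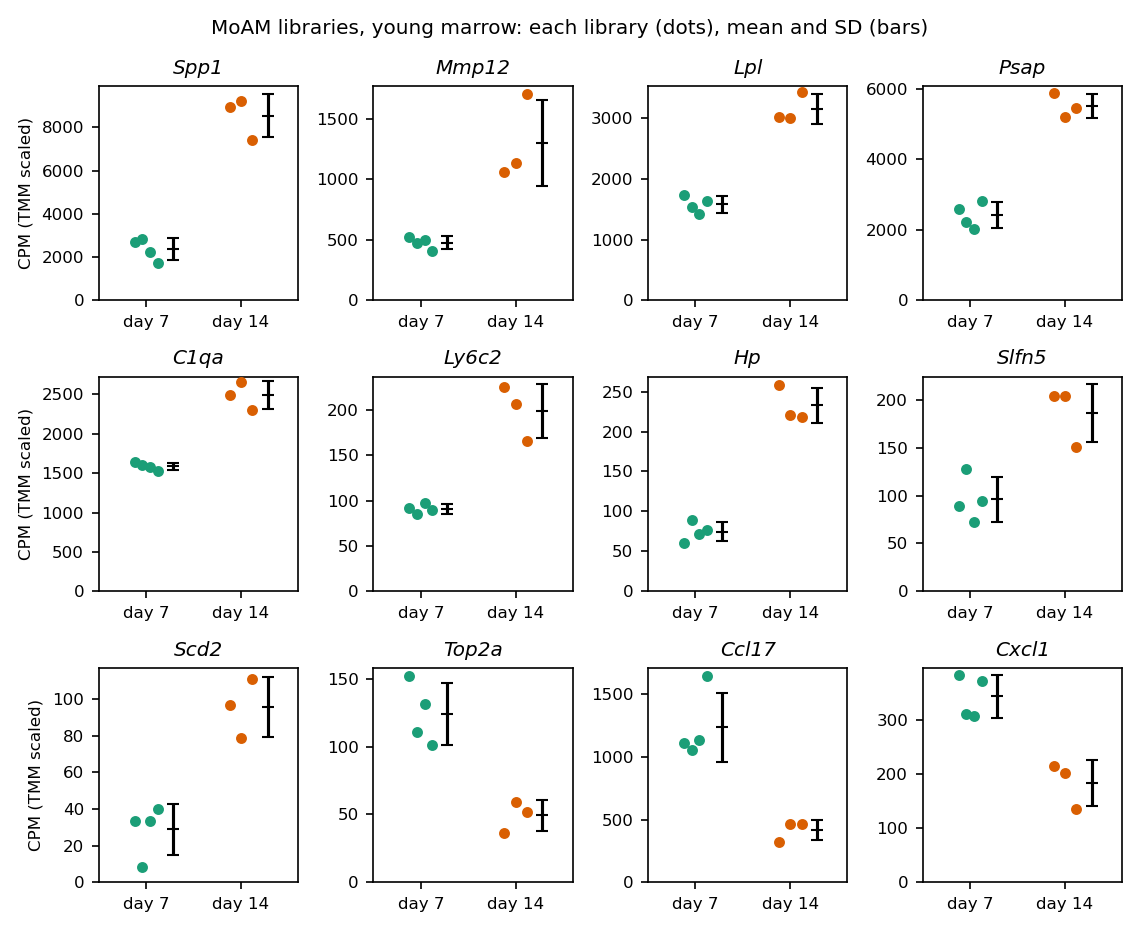
TMM-scaled CPM of 12 genes in each MoAM library with young marrow, as dots for the 4 D7 libraries and the 3 D14 libraries, with the mean and SD beside them. Top2a, Ccl17 and Cxcl1 lie lower in every D14 library, the other 9 genes lie higher, and D7 replicate 4 stands above its group for Ccl17.

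Listed genes of classical monocytes and early recruited macrophages were also higher at D14 more often than lower. Of the 20 listed and tested genes 9 rose and 2 fell (median 0.45). The genes higher in monocytes than in AM in this series, described below, split evenly: of 97 tested, 20 rose and 21 fell. Ly6c2 measured 224.6, 206.1 and 165.8 CPM at D14 and 91.5, 85.2, 97.7 and 89.5 at D7. All D14 libraries were above all D7 libraries, with a log2 fold change of 1.11 (SE 0.17, adjusted p = 1.73e-06). Reads of Ly6c2 and its close relative Ly6c1 could be split by the counting, so each is uncertain alone. Hp, the hemoglobin scavenger haptoglobin, measured 258.3, 221.2 and 218.5 CPM at D14 against 60.5, 89.4, 71.9 and 76.6 at D7 (log2 fold change 1.69, SE 0.16, adjusted p = 5.86e-12). Plac8 (1.43), Ifitm6 (1.71) and F13a1 (1.38), the last the A chain of coagulation factor XIII, rose on the log2 scale by the values given. Fn1, fibronectin, measured 3838, 3760 and 4484 CPM at D14 and 2702, 2678, 2179 and 1883 at D7 (0.78, SE 0.11). The chemokine receptor Ccr2, a defining gene of classical monocytes, measured 754 to 1029 CPM at D14 and 927 to 1158 at D7. It was not called (-0.25, SE 0.11, adjusted p = 0.118), and was called lower without D14 replicate 3 (-0.42, adjusted p = 0.00658). Neither Fn1 nor Ccr2 was highest in monocytes here. Young monocytes at D7 measured 513.8 to 589.9 and 394.1 to 488.6 CPM, below all libraries compared (TMM scaled over all 44 libraries). S100a4 (-0.59) and the C-type lectin Clec4e (-0.85) fell. The neutrophil markers moved beside this list: 4 of 15 tested rose, S100a8 (0.86), S100a9 (0.80), Csf3r (1.09) and Mmp9 (0.90), and 0 fell. Their summed level was 2947 to 3670 CPM at D14 and 1759 to 2697 at D7, with Elane at 0 in the D7 libraries, and their part in the result was not tested.

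Genes of resident alveolar macrophages rose in 9 of the 24 members tested, with 0 lower (median 0.40, or 0.25 without D7 replicate 3). The list has 30 genes, and 6 were too low to test. Siglecf measured 24.6, 28.4 and 26.1 CPM at D14 and 18.8, 8.52, 7.82 and 16.9 at D7 (1.00, SE 0.33, adjusted p = 0.0342), a call lost without any 1 of D14 replicates 1, 2 and 3 and D7 replicates 2 and 3 (adjusted p from 0.0511 to 0.249). Its libraries did not overlap, and its level at D14 stayed far below that of AM, as the plot of lineage genes by column shows. Atp6v0d2, a subunit of the lysosomal proton pump (0.80), the cholesterol exporter Abcg1 (0.74), the circadian repressor Bhlhe41 (0.93), Cebpb (0.78), F7 (0.61) and Ear2 (0.46) rose. Ear2 has close relatives among the Ear genes and is uncertain alone. Pparg, the master factor of alveolar macrophages, measured 44.3 to 63.2 CPM at D14 and 25.6 to 56.5 at D7 and was not called (0.15, SE 0.21), with its direction turned without D14 replicate 2 (-0.047). Car4 (0.43, SE 0.19, adjusted p = 0.134) and Fabp4 (0.47, SE 0.31, adjusted p = 0.371) were not called with all libraries, but Car4 was without D7 replicate 2 (0.56, adjusted p = 0.0388) and Fabp4 without D14 replicate 3 (0.83, adjusted p = 0.031). The scavenger receptor Marco was too low to test, at most 3.28 CPM at D14.

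Population lists made from the D7 libraries of young AM and young monocytes came from a contrast that called 47.6% of 8111 genes, 22.4% higher in AM (1818) and 25.2% lower (2041). The contrast rests on 3 AM and 2 monocyte libraries. Those 2 held 0.67% to 0.89% of counts in mitochondrial DNA-encoded genes, against 3.50% to 4.50% in monocytes with aged marrow. Each list holds only the 100 genes of smallest p in its direction. Of the 100 higher in AM, 96 were tested, 34 rose and 9 fell (median 0.28). Of the 100 higher in monocytes, 97 were tested, 20 rose and 21 fell (median -0.053, and 0.034 without D14 replicate 2 or 0.027 without D7 replicate 3). Mpeg1, the pore-forming perforin-2, rose by 1.16 on the log2 scale among the first, and the transcription repressor Bach2 fell by 1.29 among the second.

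The lysosome list held the largest share of genes higher at D14 among the 21 program lists. Of its 38 genes, all tested, 23 rose and 1 fell (median 0.44), and 16 of 33 rose after thinning to equal depth. Psap, the precursor of the saposins that help to digest sphingolipids, measured 5886, 5212 and 5446 CPM at D14 and 2601, 2231, 2011 and 2824 at D7. Each D14 library was above all of D7, and the log2 fold change was 1.19 (SE 0.11, adjusted p = 5.86e-12). Ctsl, a cysteine cathepsin, measured 1322, 1368 and 1103 CPM at D14 and 597, 745, 528 and 539 at D7 (1.10, SE 0.11). The lysosomal membrane protein Lamp1 (0.77) rose too. Cathepsin D (Ctsd) was the single member that fell. It was counted at 4.76, 4.73 and 1.19 CPM at D14 and 24.2, 34.1, 19.5 and 23.4 at D7 (-2.72, SE 0.52), a level far below that of the other cathepsins.

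In the cholesterol synthesis list, 10 of 21 tested members rose, 0 fell and 11 were not called (median 0.56). Msmo1, a sterol oxidase of the pathway, measured 109.2, 98.7 and 120.4 CPM at D14 and 69.9, 63.9, 55.5 and 76.6 at D7, without overlap (0.73, SE 0.17, adjusted p = 0.00207). Sqle (0.83), Insig1 (0.89), Hmgcs1 (0.63), Stard4 (1.06), Mvd (0.61) and the regulator Srebf2 (0.55) were among the others that rose. After thinning to equal depth, 12 members could be tested and 1 was called, and 6 rose without D14 replicate 3, without D7 replicate 3 or by limma voom. Sqle lost its call without D14 replicate 3 (adjusted p = 0.0815) or D7 replicate 1 (adjusted p = 0.0797). In the lipid handling list 11 of 24 members rose, 0 fell and 13 were not called (median 0.45). Those that rose included Scd2 (1.54), a desaturase, Lipa (0.86), the acid lipase of the lysosome, and Nr1h3 (1.28), which encodes the sterol receptor LXRα. Scd2 measured 96.7, 78.8 and 111.2 CPM at D14 and 33.6, 8.52, 33.6 and 40.2 at D7, and Lipa 417.7, 414.9 and 510.6 against 274.4, 234.2, 240.8 and 234.9. The fatty acid transporter Cd36 measured 271.1, 255 and 324.7 CPM at D14 and 174.8, 119.2, 177.4 and 141.4 at D7, with no overlap (0.84, SE 0.14).

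Genes for apoptotic cell uptake and for iron changed in smaller numbers. Of 17 uptake genes 5 rose, C1qa (0.65), Cd36, Mfge8, Mertk (0.60) and Pros1 (0.56), and Stab1 fell (-0.91), with a list median of 0.29. C1qa measured 2492, 2663 and 2309 CPM at D14 and 1641, 1601, 1584 and 1523 at D7 and did not overlap between the days (SE 0.10, adjusted p = 1.53e-06). In the complement and interstitial list, 4 of 21 rose and 2 fell (median 0.20), with Cx3cr1, the fractalkine receptor, at 0.56 and Pmepa1 at -0.70. Only 2 rose without D14 replicate 3 or without D7 replicate 3. Of 16 iron and heme genes 5 rose and 0 fell (median 0.15, or 0.31 without D7 replicate 2), or 2 and 0 without D7 replicate 3. The iron exporter Slc40a1 was counted at 6.23, 4.73 and 7.41 CPM at D14 and at 0, 0, 0 and 1.30 CPM at D7, where it rests on 1 count in all 4 libraries, so no fold is given. Its call was lost without D7 replicate 3 (adjusted p = 0.0587).

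Matrix genes and growth factors held calls in both directions, beside 6.81% higher and 6.35% lower over all genes tested. For the growth factors the lower calls were close to that share. Of 31 matrix genes and proteases 10 rose and 3 fell (median 0.41). The rises included Spp1, Mmp12, F13a1 and Fn1, and Plau (-0.54) and Adam8 (-0.43) fell. The last calls were lost without single libraries: Plau without D14 replicate 1 or 2 or D7 replicate 3 or 4 (adjusted p from 0.0757 to 0.269), and Adam8 without D14 replicate 2 or 3 or D7 replicate 2, 3 or 4 (adjusted p from 0.0519 to 0.225). Of 42 growth factor ligands and receptors 8 rose and 3 fell (median 0.078), or 5 fell without D14 replicate 3 (median 0.031). The median was 0.16 without D7 replicate 1 and 0.14 without D7 replicate 3. On the ligand side Inhba, the activin A subunit, measured 16.5, 18.02 and 17.2 CPM at D14 and 47.1, 38.3, 59.4 and 45.4 at D7, with no overlap (-1.52, SE 0.27, adjusted p = 3.53e-05). Vegfa also fell (-0.88, SE 0.21). On the receptor side Tgfbr2 (0.75), Tgfbr1 (0.42) and Csf1r (0.39), the receptor for the macrophage growth factor CSF1, rose. The Csf1r call was lost without D7 replicate 3 (0.35, adjusted p = 0.0514).

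**Figure D4:**
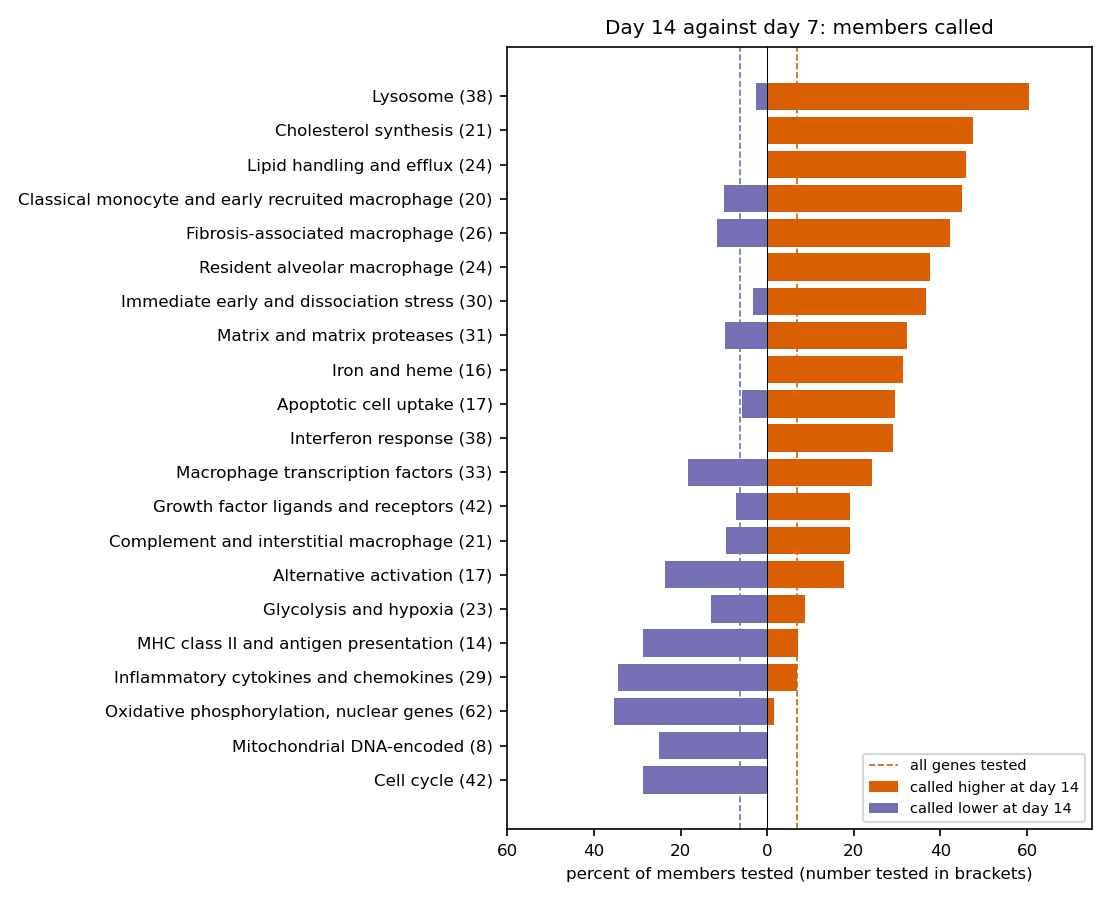
Share of the tested members of each of the 21 program lists that were called higher (orange, to the right) or lower (purple, to the left) at D14, in percent, with the number tested in brackets and dashed lines at the shares among all genes tested, 6.81% and 6.35%. Lysosome, cholesterol synthesis and lipid handling lie at the top and reach to the right, and cell cycle, mitochondrial and inflammatory genes reach to the left.

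Interferon-stimulated genes were higher at D14 in 11 of 38 tested members and lower in 0 (median 0.58). Without D14 replicate 1, without D7 replicate 3 or by limma voom, 7 rose. Ifit1, an antiviral RNA-binding protein, measured 31.2, 46.97 and 23.1 CPM at D14 and 10.8, 8.52, 10.2 and 10.4 at D7 (1.74, SE 0.33, adjusted p = 9.79e-05). Slfn5, a schlafen family gene, measured 203.7, 203.5 and 150.9 CPM against 88.8, 127.7, 72.7 and 94.7 (1.05, SE 0.16). Isg15, an interferon-induced ubiquitin-like protein, was split: its D14 replicates 1 and 2 measured 277.7 and 294.4 CPM, replicate 3 measured 122.5, and D7 ran from 203.7 to 243.4. It was not called (0.037, SE 0.23), and its direction turned under other settings.

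The promoters of Ifit1 and Slfn5 are shown because both genes rose and both hold the interferon-stimulated response element, the DNA motif bound by the factor complex that interferon activates. They are the 250 bases before the RefSeq gene start (build GRCm38.p6), 5′ to 3′ on the gene's strand, at chr19:34640639-34640888 (plus strand) for Ifit1 and chr11:82951852-82952101 (plus strand) for Slfn5. Capitals mark matches on either strand to GAAA, any 2 bases, GAAA. In Ifit1 the matches begin 104 and 85 bases before the start, and in Slfn5 the match begins 155 bases before it.
Ifit1: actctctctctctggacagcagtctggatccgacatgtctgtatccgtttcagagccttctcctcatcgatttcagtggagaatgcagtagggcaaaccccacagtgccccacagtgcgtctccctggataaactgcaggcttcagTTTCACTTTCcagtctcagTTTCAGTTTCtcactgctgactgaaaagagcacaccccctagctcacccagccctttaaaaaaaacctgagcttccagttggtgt
Slfn5: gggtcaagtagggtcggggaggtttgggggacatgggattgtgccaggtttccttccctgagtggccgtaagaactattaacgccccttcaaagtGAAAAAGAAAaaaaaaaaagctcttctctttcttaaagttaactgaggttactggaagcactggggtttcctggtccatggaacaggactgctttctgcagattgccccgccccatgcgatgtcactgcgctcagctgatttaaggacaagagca
The search window ran from 250 bases before to 50 bases after each start, 300 bases in all. The motif was in 17 of the 29 interferon list genes with a promoter entry (58.6%), against 3.99% of all 27025 genes with an entry. Among the list genes that rose, 4 of 8 with an entry held it (50%), namely Gbp3, Ifit1, Oas3 and Slfn5, and among those not called 13 of 21 (61.9%). A match is a description of the letters and not a measured binding site.

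In the cell cycle list, 12 of 42 tested members fell at D14, 0 rose and 30 were not called (median -0.63), the lowest median of the 21 program lists. Top2a, the topoisomerase of dividing cells, measured 36.6, 59.5 and 51.6 CPM at D14 and 152, 110.7, 131.3 and 101.2 at D7. No D14 library reached the lowest D7 library, and the log2 fold change was -1.33 (SE 0.18, adjusted p = 1.77e-07). Ube2c, the ubiquitin-conjugating enzyme of the anaphase-promoting complex, measured 22.7, 21.8 and 36.8 CPM at D14 and 60.5, 42.6, 54.7 and 103.8 at D7 (-1.33, SE 0.23). Mki67, the proliferation marker, measured 16.9, 26.03 and 18.7 CPM at D14 and 26.9, 25.6, 84.4 and 37.6 at D7, with D14 replicate 2 inside the D7 range (-1.22, SE 0.28, adjusted p = 0.00149). Its call was lost without D7 replicate 3 (-0.58, adjusted p = 0.27). After thinning to equal depth 22 could be tested and 2 were called, both lower.

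The promoters of Top2a and Ube2c are shown for the cell cycle genes homology region (CHR), a short element of genes expressed at mitosis. They are again the 250 bases before the RefSeq start (GRCm38.p6), at chr11:99024190-99024439 (minus strand) for Top2a and chr2:164769679-164769928 (plus strand) for Ube2c, with matches to TTTGAA on either strand in capitals. The matches begin 179 and 23 bases before the start in Top2a and 29 bases before it in Ube2c.
Top2a: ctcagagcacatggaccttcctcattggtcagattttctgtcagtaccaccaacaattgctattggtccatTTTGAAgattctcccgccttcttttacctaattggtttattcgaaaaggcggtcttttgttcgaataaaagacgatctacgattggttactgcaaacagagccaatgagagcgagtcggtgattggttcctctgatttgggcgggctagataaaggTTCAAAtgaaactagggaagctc
Ube2c: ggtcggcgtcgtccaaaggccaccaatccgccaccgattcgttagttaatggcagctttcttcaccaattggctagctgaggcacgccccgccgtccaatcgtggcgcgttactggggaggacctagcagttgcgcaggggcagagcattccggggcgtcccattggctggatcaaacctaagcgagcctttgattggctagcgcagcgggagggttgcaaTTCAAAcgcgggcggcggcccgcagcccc
The letters TTTGAA were in 16 of 35 cell cycle genes with an entry (45.7%), in 6 of 11 that fell (54.5%) and in 10 of 24 not called (41.7%). The share was 20.2% among all genes with an entry and 14.6% among the genes tested here. The other motifs searched were a sterol regulatory element, TCACNCCAC, found in 1 of 16 cholesterol synthesis genes (Hmgcs1; 1.44% of all genes), and the lysosomal element GTCACGTG, found in 7 of 29 lysosome genes (24.1%, against 2.55% of all genes and 4.92% of the genes tested). Among lysosome genes that rose, 3 of 19 held the lysosomal element (15.8%), and among those not called 3 of 9 (33.3%).

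Of 29 cytokine and chemokine genes 10 fell, 2 rose and 17 were not called (median -0.17). The median was -0.058 without D7 replicate 1, -0.079 without D14 replicate 3 and -0.27 without D7 replicate 4. Cxcl1, a neutrophil attractant, measured 215.5, 201.3 and 135.8 CPM at D14 and 383.3, 310.8, 308 and 372.4 at D7, without overlap (-0.91, SE 0.15, adjusted p = 1.16e-05). Nfkbia, the inhibitor that NF-κB itself induces, measured 3892, 3693 and 2424 CPM at D14 and 6590, 5540, 6114 and 4738 at D7 (-0.78, SE 0.12). Cxcl10 (-0.87), Cxcl2 (-0.67), Ccl4 (-0.69), Il10 (-1.10), Il12b (-1.33), Nlrp3 (-0.61), Cxcl16 (-0.45) and Il1b (-0.34) fell (Il1b not without D14 replicate 1 or 2, adjusted p = 0.0584 and 0.0896), whereas the chemokines Ccl9 (0.91) and Ccl6 (0.59) rose. In the MHC class II list, 4 of 14 fell, 1 rose and 9 were not called (median -0.23, or -0.027 without D7 replicate 1), and 2 fell without D14 replicate 3 or without D7 replicate 4. The summed level of this list was higher at D14, at 30450 to 34390 CPM against 25360 to 28850, opposite in direction to its median. The cathepsin gene Ctss made up much of that sum, at 16460 to 22560 CPM at D14 and 11800 to 13320 at D7 (TMM scaled over all 44 libraries). The sum is therefore not a measure of the class II genes themselves. H2-Eb1 measured 2255, 2146 and 2305 CPM at D14 and 3216, 3070, 2879 and 2864 at D7 (-0.43, SE 0.10), H2-Aa fell by 0.36, and the costimulators Cd80 (-0.51) and Cd40 (-0.65) fell. The Cd80 call was lost without D14 replicate 1 or 3 or D7 replicate 3 or 4 (adjusted p from 0.054 to 0.088). The member that rose was Ctss, the cathepsin that trims the invariant chain, with a log2 fold change of 0.68.

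Alternative activation genes split, with 3 of 17 higher and 4 lower. The list median of -0.18 was not stable: it was -0.013 without D14 replicate 1, -0.035 without D7 replicate 1 and 0.062 without a filter on low counts. Ccl17, a chemokine for T helper cells, measured 321.7, 466.6 and 461.7 CPM at D14 and 1107, 1056, 1131 and 1640 at D7, with no overlap (-1.57, SE 0.13, adjusted p = 9.64e-12). Irf4, a factor that drives this program, measured 20.5, 28.8 and 26.7 CPM at D14 and 47.1, 80.9, 55.5 and 59.7 at D7 (-1.17, SE 0.24). Retnla, a marker of the same program, measured 43.6, 33.7 and 99.3 CPM at D14 and 22.9, 21.3, 17.2 and 9.08 at D7 (1.79, SE 0.36, adjusted p = 0.000822). Clec7a, the β-glucan receptor dectin-1, and Cd200r1 rose by 0.62 and 0.78 on the log2 scale. The mannose receptor Mrc1 was not called (0.0077, SE 0.11), with overlapping libraries and a direction that turned under other settings. The chitinase-like gene Chil3 measured 667 to 1023 CPM at D14 and 876 to 1039 at D7 and was not called (-0.22, SE 0.12, adjusted p = 0.234), except without D14 replicate 3 (-0.45, adjusted p = 0.00381).

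Of 62 tested nuclear genes of oxidative phosphorylation 22 fell, 1 rose and 39 were not called (median -0.35), and after thinning 11 of 60 fell. Without D14 replicate 1 or without D7 replicate 4, 14 fell. Atp5g3, a subunit of the ATP synthase ring, measured 677.1, 730.2 and 599.9 CPM at D14 and 1216, 1124, 1136 and 1488 at D7, without overlap (-0.90, SE 0.11, adjusted p = 1.93e-08). Sdhb, an iron-sulfur subunit of complex II, fell by 0.79, and Ndufa4 rose by 0.88. Many of these small genes have pseudogenes, and each is uncertain alone. Of 8 mitochondrial DNA-encoded genes tested, mt-Nd2 (-0.45) and mt-Nd5 (-0.35) fell, with 6 not called, and 0 were called by limma voom. Neither was called without D14 replicate 3 (adjusted p = 0.0796 and 0.395), and mt-Nd5 also not without D7 replicate 1, 2 or 3 (adjusted p from 0.057 to 0.145). Glycolysis and hypoxia genes showed 2 of 23 higher, Pkm (0.45) and the glucose transporter Slc2a1 (0.60), and 3 lower, Ndrg1 (-0.83), Vegfa and Hif1a (-0.82). These few calls stand beside 6.81% higher and 6.35% lower over all genes tested. Slc2a1 lost its call without D14 replicate 1 or D7 replicate 1 (adjusted p = 0.0982 and 0.0677), and Hif1a without D14 replicate 1 (adjusted p = 0.06) or D7 replicate 3 (adjusted p = 0.297).

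Transcription factors of macrophages moved both ways, with 8 of 33 higher and 6 lower (median -0.022, and up to 0.083, without D14 replicate 1, when a library was left out). Klf2, a factor that restrains inflammatory genes, measured 412.2, 445.4 and 615 CPM at D14 and 110.3, 106.4, 158.7 and 175.2 at D7, far apart (1.78, SE 0.15, adjusted p = 1.43e-12). Bach2 measured 68.9, 86.3 and 81.0 CPM at D14 and 156, 187.3, 193.1 and 233.6 at D7 (-1.29, SE 0.15, adjusted p = 3.9e-09). Zeb2, a factor of macrophage identity, fell by 0.46 with overlapping libraries. Fos measured 2091, 2053 and 2229 CPM at D14 and 1096, 1299, 813.7 and 694.3 at D7 (1.15, SE 0.13). Fos and Klf2 also belong to the immediate early genes, a list that responds to tissue dissociation. Of its 30 members 11 rose, among them Zfp36 (0.98), Dusp1 (0.71) and Ier2 (0.96), and Ier3 fell (-0.43), with a median of 0.20. The part of cell handling in these genes was not tested.

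The largest changes over all genes were taken among called genes of at least 10 CPM in a group and without overlap. Upward, where group means at D7 were at most 10.2 CPM, the first in order were Emcn, Jchain, Col3a1, Maged1, C4b, H2-M2, Sema3c, Ltbp3, Adgrl4, Rnf135, Col1a2 and Mterf4. Emcn, Jchain, Col3a1, Col1a2 and Ltbp3 also belong to lists described here. Emcn, a sialomucin of endothelial cells, measured 11.4, 18.2 and 12.8 CPM at D14 and 0, 0, 3.13 and 0 at D7, where it rests on 4 counts. The collagen gene Col3a1 measured 25.3, 16.02 and 9.49 CPM at D14 and 1.35, 0, 4.69 and 1.30 at D7, on 8 counts. H2-M2, a nonclassical class I gene, was better covered, at 42.5, 60.4 and 81.6 CPM against 10.8, 4.26, 14.1 and 11.7 (2.40, SE 0.29, adjusted p = 1.93e-08). The complement gene C4b, which has a close copy, measured 20.2, 23.1 and 19.9 CPM against 9.42, 0, 3.91 and 0. Mterf4 lost its call without any 1 library except D7 replicate 1 (adjusted p from 0.0664 to 0.245).

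Downward, the first in order were Kcnmb2, Stpg3, Ccdc162, Ctsd, Neil3, Ccdc149, Ninj2, Wnt11, Rapgef4, B3gnt5, Mybpc3 and Hax1. Kcnmb2, a regulatory subunit of calcium-activated potassium channels, measured 104.4, 71.0 and 77.1 CPM at D14 and 789.5, 613.1, 940.3 and 177.8 at D7. D7 replicate 4 stood well below the other D7 libraries and still above D14, and the log2 fold change was -2.93 (SE 0.47, adjusted p = 0.00181). Stpg3 measured 19.8, 14.9 and 17.5 CPM at D14 and 129.1, 161.8, 170.4 and 40.2 at D7, again lowest in replicate 4 (-2.84, SE 0.35). Ccdc162 measured 59.0, 83.6 and 27.3 CPM against 360.4, 255.5, 443.2 and 542.4 (-2.84, SE 0.36). Mybpc3 lost its call without D14 replicate 3 or D7 replicate 3 or 4 (adjusted p from 0.0522 to 0.0644), and Hax1 without D14 replicate 1 or 2 or D7 replicate 1 or 2 (adjusted p from 0.0919 to 0.113).

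Markers of other lung cells were measured beside these changes. Of 8 fibroblast markers tested 3 rose, Col1a2 (2.16), Col3a1 and Col1a1 (1.97), and 0 fell. By limma voom 0 of the 8 were called, and Col1a1 lost its call in edgeR without D14 replicate 1 or 2 or D7 replicate 1 or 4. The summed level of the list was 73.8 to 96.0 CPM at D14 and 25.6 to 41.5 at D7, where Tcf21 was at 0. Of 12 endothelial markers 4 rose, Emcn, Cdh5 (1.15), Cldn5 (0.89) and Kdr (0.65), and 0 fell, with a sum of 267.5 to 336 CPM against 176.2 to 204.8 and Prox1 at 0 at D7. Emcn, Col3a1 and Col1a2, named above, are members of these lists, so their rise is part of these sums. Adgrl4 rose as well. The part of other cells in these genes was not tested. The T cell markers showed 0 of 16 called in edgeR, 0 at an unadjusted p under 0.05 and 0 by DESeq2 or limma voom, with a sum of 200.8 to 262.1 CPM at D14 and 149 to 197 at D7 and Foxp3 at 0 in all 4 D7 libraries. B cell markers showed 2 higher, Jchain and Ms4a1, and 1 lower, Ebf1, of 9, with sums of 122.7 to 165.5 and 106.3 to 167.3 CPM. Only 1 was higher without D14 replicate 3 or D7 replicate 3 or 4, and 0 by limma voom, and 0 were lower without D7 replicate 3. Epithelial markers showed 1 of 9 higher, Scgb3a2, with sums of 250.5 to 410.4 and 246.6 to 276.8 CPM, and dendritic cell markers 1 of 11, Cd209a. The epithelial count was 0 without D14 replicate 3 or any 1 D7 library and by DESeq2 or limma voom, and the dendritic count was 0 without D14 replicate 1 or D7 replicate 3 or 4. The macrophage-defining list itself showed 7 of 14 higher (4 without D7 replicate 3), Mpeg1 at the head, and Cd14 lower, with a sum of 35220 to 37440 CPM at D14 and 26310 to 29770 at D7.

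In MoAM of recipients with aged marrow (3 libraries at D14 and 4 at D7), the same contrast gave 1540 called genes of 10690 (14.4%), 7.02% higher and 7.39% lower. In both marrow groups 201 genes rose and 234 fell, which is 30.9% of the calls with young marrow and 28.2% of the calls with aged marrow, and 63 genes were called in opposite directions. The difference between the contrasts, tested directly, was called for 594 genes (5.56%), 272 higher (2.54%) and 322 lower (3.01%) with young marrow, and 321 of them were among the 1407. The count was 362 without aged D14 replicate 3 and 377 without young D7 replicate 3. Spp1 rose in both, more with young marrow: aged D14 libraries measured 6535, 6382 and 6056 CPM and aged D7 libraries 3480, 3427, 2855 and 3420, and the difference of log2 fold changes was 0.90 (adjusted p = 0.00014). Hp differed by 1.28 (adjusted p = 2.5e-05), and Ly6c2 by 0.78 (adjusted p = 0.026). Bach2, which fell here, was 154.8, 166.5 and 172.7 CPM at D14 and 160.6, 120.8, 154.6 and 130 at D7 with aged marrow, a difference of -1.54 (adjusted p = 4.2e-07). Zeb2 fell with young marrow and rose with aged marrow (0.60), a difference of -1.06 (adjusted p = 3.7e-06). Mmp12 rose in both, and its difference of -0.46 was not called (adjusted p = 0.12).

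The 5 genes with the smallest p for this difference were Ly6c1, Ly6a, Nfkb1, Spag9 and Cyp4b1. Ly6c1 rose with young marrow (0.69) and fell with aged marrow (-1.46), where D7 libraries measured 283.7, 218, 265.9 and 248 CPM and D14 libraries 97.2, 76.4 and 101. Ly6a followed the same course, at 333.8 to 378.5 CPM in aged D7 and 142.2 to 190 in aged D14. Nfkb1, the p105 and p50 subunit of NF-κB, fell with young marrow from 652, 537, 799 and 770 CPM at D7 to 482, 448 and 359 at D14, and rose with aged marrow from 493 to 535 CPM at D7 to 812 to 854 at D14. Endothelial markers moved with the first of these genes: their sum with aged marrow was 483.1 to 548.4 CPM at D7 and 216.4 to 231.9 at D14, and 8 of 12 were called in the difference, all higher. Ly6c1 and Ly6a are also expressed by lung endothelium, and the part of endothelial RNA in their values was not tested. The D7 and D14 libraries with young marrow enter both this test and the comparison above.

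**Figure D5:**
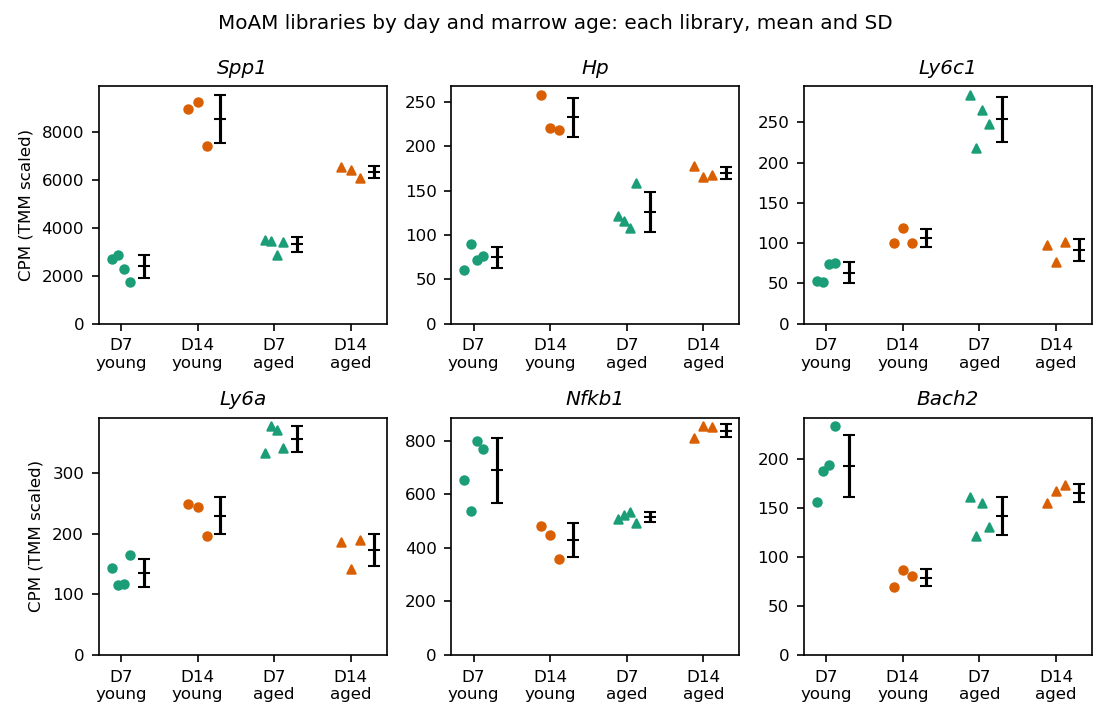
TMM-scaled CPM of 6 genes in the 14 MoAM libraries by day and marrow age (circles for young, triangles for aged marrow, green for D7, orange for D14), with the mean and SD beside the points. Spp1 and Hp are higher at D14 in both marrow groups, Ly6c1 and Ly6a are highest in aged D7, and Nfkb1 and Bach2 fall from D7 to D14 with young marrow.

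Young AM, the population labelled as alveolar macrophages, were sampled at the same days in 3 libraries each. Levels in AM are TMM scaled over all 44 libraries. Their contrast called 1129 of 9478 genes (11.9%), 6.48% higher and 5.43% lower, and the difference between MoAM and AM was called for 469 of 9478 genes (4.95%), 203 higher (2.14%) and 266 lower (2.81%) in MoAM. It was 276 without AM D7 young replicate 3. Of the genes tested in both, 174 rose in both, 158 fell in both and 59 were called in opposite directions, and the shared ones are 24.4% of the MoAM calls and 29.7% of the AM calls. The 5 genes with the smallest p were Apoe, Arg1, Mmp14, Cd36 and Trem1. Apoe, the lipid carrier, rose in both, by 0.42 in MoAM and 2.91 in AM, from 19.9 to 53.7 CPM at D7 to 316.2 to 394.7 at D14 in AM. Arg1 fell in MoAM and rose in AM, from at most 2.62 CPM at D7 to 39.96 to 97.9 at D14. Mmp14, a membrane-bound matrix protease, was not called in MoAM (0.22, SE 0.12) and rose in AM from 7.86 to 8.51 CPM to 98.7 to 142.3. Cd36 rose in MoAM and fell in AM (-1.59), and Trem1, an amplifier of inflammation, was not called in MoAM and fell in AM (-2.19). Spp1 was not particular to MoAM: in AM it rose from 1092 to 1625 CPM at D7 to 11270 to 17040 at D14. On the same scale MoAM measured 1863 to 2975 at D7 and 7830 to 9853 at D14, and Spp1 was among the genes called in the difference. Of the 26 fibrosis-associated genes 15 rose and 4 fell in AM, against 11 and 3 in MoAM. Kcnmb2 and Stpg3 fell in all 3 contrasts, with log2 fold changes of -3.63 and -3.67 in aged MoAM and of -2.67 and -2.62 in young AM. Depth moved with the day in those contrasts too. Total counts of aged MoAM were 5744232 to 9921734 at D14 and 485090 to 3453587 at D7. Those of young AM were 1764514 to 3114658 and 365949 to 1198138. Equal depth was not tried for the aged MoAM and AM contrasts or for the tests of a difference.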

How the data were processed

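Gene counts were used as deposited by the authors, 1 line per gene symbol (19910 genes) and 1 column per library (44), with 0 columns left out. A second deposited table was not used. Per the labels' protocols, RNA was made into QuantSeq 3′ libraries with molecular identifiers, so a gene's count reads its 3′ end. Per the submitters' processing notes, the authors used STAR 2.7.9a, featureCounts, edgeR 3.36.0, Trim Galore 0.6.6, FastQC and Picard, with the builds mm10 and GRCm39 named without roles. Identifier collapsing, strand and the treatment of multi-mapped reads: not given in the sources used here.

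Columns were assigned by bytewise order of their names, as the report states. Genes were kept by filterByExpr and scaled by TMM, and the 14 MoAM libraries formed 1 fit with 1 coefficient per group in edgeR 4.0.16 (R 4.3.3), with the robust quasi-likelihood test. Calls were made at 0.05 after Benjamini-Hochberg adjustment, taken over every gene tested. The difference from AM was fitted over the young MoAM and AM libraries. All adjusted p come from these fits. CPM are TMM scaled unless stated. The labels' replicate numbers did not enter the fit. No library pair was identical. The edgeR test of D14 against D7 with young marrow was tried on simulated counts, and the other contrasts and methods were not.

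Members and lists were chosen with earlier results of these data known, so list counts are descriptions. Named genes were the 12 largest changes in each direction among called genes of at least 10 CPM and without overlap, up to 3 called members of smallest p per program list and direction, a panel of 30 genes and the 5 smallest p of each difference. Gene models and predicted genes without a name were left out of the first (13). A few items are counted in the lists and not reported here by name. Other list members in the text were added after their values were seen. Alternatives were RLE and upper-quartile scaling, DESeq2 1.42.0, limma 3.58.1 (voom), no filter, the replicate number as a block, single libraries left out, other sets of libraries, the printed column names and, added after seeing the data, equal depth. Equal depth was tried only for D14 against D7 with young marrow in MoAM.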

Additional observations from a re-analysis of the deposited data

Results flagged for a closer look

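Among the 4 D7 young libraries, a single library lay far from the other 3 for 9 of the named genes by a gap test that chance passes in about 1 of 20 groups. The named genes were 128, less the few not reported by name, so several of the 9 would be expected to pass by chance. Replicate 2, the shallowest library, was high for Jchain (4.26 CPM, others 1.30 to 1.56), Adgrl4 (8.52) and Marco (4.26, others 0) and low for Sema3c (0 CPM, others 3.89 to 4.04) and Ier3 (672.8 CPM, others 798.1 to 817.7). Replicate 4 was high for Ccl17 (1640 CPM, others 1056 to 1131) and Slc40a1 (1.30 CPM, others 0). Replicate 1 was high for Lipa (274.4 CPM), and replicate 3 for Emcn (3.13 CPM, others 0). Replicate 2 held 233754 counts in all, so its values for Jchain, Adgrl4, Marco and Sema3c stand for very few counts or none. The values of Slc40a1 and Emcn also rest on few counts, and such gaps lie at the floor of the measurement.

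The change from D7 to D14 differed between marrow ages, by edgeR's test of the difference, for Ly6c1 (2.15 on the log2 scale, young minus aged, adjusted p = 5.54e-10), Ly6a (1.80), Nfkb1 (-1.41), Spag9 (-1.31) and Cyp4b1 (3.74). It differed between MoAM and AM for Apoe (-2.51, MoAM minus AM, adjusted p = 3.82e-12), Arg1 (-7.53), Mmp14 (-3.56), Cd36 (2.42) and Trem1 (1.90). Arg1 in young AM at D7 was at most 2.62 CPM, so its fitted value depends on the prior count.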

How the results depend on the processing

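The count of 1407 genes moved by more than 1.5 times to 896 with only the 7 libraries fitted (410 higher, 486 lower), to 25 with all 44 libraries in 1 fit (14 higher, 11 lower), to 467 at equal depth and to 3347 by the printed column names. By those names the difference between marrow ages fell from 594 to 0 genes (621 at unadjusted p under 0.05 by edgeR), and the difference from AM rose from 469 to 3454. Leaving out each library in turn gave 991 to 1476 genes, 362 to 662 for marrow age (362 without aged D14 replicate 3, 377 without young D7 replicate 3) and 276 to 480 for AM (276 without AM D7 young replicate 3). DESeq2 called 1482, limma voom 1057 and RLE 1413. The share called higher was 51.7%, 47.5% by RLE, 45.8% by DESeq2, 45.5% by limma voom and 60.6% without a filter.

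For same-numbered D14 and D7 libraries the correlation of deviations was -0.027, -0.028 and -0.016. Pairs with different numbers ran from -0.039 to 0.056. Deviations at these depths hold much counting noise, so these values cannot decide whether the numbers pair the samples. With the number as a replicate block 1208 genes were called for D14 against D7, 558 for marrow age and 394 for AM.

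Of 108 named called genes 0 turned direction, 91 kept their call whichever library was left out, 97 lost it with all 44 libraries and 23 at equal depth. The alternatives reuse the same libraries and these genes were picked as called, so kept directions are no independent support. Genes that were not called did turn. Pparg ran from -0.047 to 0.25 with a library left out. Fabp5 was 0.011 without a filter, 0.068 with the block and 0.080 at equal depth, and -0.14 to 0.079 with a library left out. Mrc1 was -0.0165 by RLE, -0.0090 by DESeq2, -0.036 with the block, -0.021 with the 7 libraries, -0.0036 with all 44 and -0.012 at equal depth, and -0.074 to 0.098 with a library left out. Pdgfa was -0.16 to 0.19 with a library left out. Isg15 was -0.046 by limma voom, -0.011 with the block and -0.044 at equal depth, and -0.19 to 0.33 with a library left out.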
